A study of Mus musculus with 12 samples.

Results

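Hearts lacking both Nkx2-5 and Tbx5 were compared with wild-type (WT) hearts of mouse embryos at E8.75, the day of development when the linear heart tube is looping and the first chambers begin to balloon out. The comparison used 3 arrays of hearts labelled knockout for both genes (double KO) and 3 arrays of WT hearts, which are 6 of the 12 arrays in the series. The other 6 arrays held 3 samples of hearts labelled Nkx2-5 KO and 3 labelled Tbx5 KO at the same stage, and they entered the fit and served for side-by-side values. Total RNA came from dissected hearts, was amplified, labelled with biotin and hybridised to Affymetrix arrays, and the deposited values are log2 levels. The labels call the arrays biological replicates but do not say which alleles or exons were removed, whether a Cre line was used, how many hearts entered a sample, or the sex of the embryos. Of 35557 probe sets, 21789 carried exactly 1 gene symbol and gave 19938 genes. X-linked and Y-linked genes (748) were left out, as were 82 genes with no chromosome in RefSeq, so that 19108 genes were reported.

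Nkx2-5 is a homeobox factor and Tbx5 a T-box factor, and both are needed in the myocardium for the chamber programme. They bind DNA together with Gata4 at many cardiac enhancers, and the natriuretic peptide gene Nppa is the textbook gene driven by them. Loss of either gene in mice stops heart development soon after looping. Chamber myocardium differs from the primitive tube by natriuretic peptides, fast conduction through connexin 40, trabeculae, high proliferation at the outer wall and a growing mitochondrial capacity.

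The hearts carried cardiomyocyte RNA in both groups. Of 8 defining cardiomyocyte markers, 4 were not called, the myosin heavy chain gene Myh6 and the actinin gene Actn2 fell, and the troponin gene Tnnt2 and the titin gene Ttn rose by 0.23 and 0.31 log2 units. The summed level of the 8 markers ran from 16.49 to 16.54 in WT and from 16.49 to 16.53 in double KO, and Myl7, an atrial light chain, read 13.90, 13.89 and 13.85 in WT against 13.86, 13.91 and 13.82 in double KO. Neither rise was stable: leaving out any 1 of the 6 arrays ended the call of Tnnt2 (adjusted p from 0.0742 to 0.131), and that of Ttn ended without WT replicate 1 (adjusted p = 0.0701) or 3 (0.0685) and without double KO replicate 1 (0.0629) or 2 (0.0824). The targeted genes gave no check of the labels, because the deleted parts are not named and a probe set can read what is left of the transcript. Nkx2-5 read 9.33, 9.36 and 9.35 in WT and 9.05, 9.21 and 8.97 in double KO (log2 difference -0.27, SE 0.11, adjusted p = 0.0878). It was called lower after centring each array on its median (adjusted p = 0.042). Tbx5 read 10.15, 10.13 and 9.90 in WT and 10.31, 10.65 and 10.83 in double KO (0.54, SE 0.15, adjusted p = 0.0193), and the adjusted p was 0.0742 without WT replicate 3, 0.0662 without double KO replicate 2 and 0.0682 without double KO replicate 3.

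WT and double KO arrays resembled arrays of their own group more than those of the other: Pearson's r over probe sets, which are not independent replicates, was 0.980 to 0.983 among WT arrays, 0.969 to 0.982 among double KO arrays and 0.958 to 0.963 between the groups. Between double KO and Nkx2-5 KO arrays r was 0.969 to 0.979, and between double KO and Tbx5 KO arrays 0.962 to 0.975. Both ranges overlapped that within double KO. Values spread less widely in double KO, with an SD over probe sets of 2.05 to 2.10 against 2.17 to 2.19 in WT. In the results that follow, double KO replicate 3 often lay nearest to WT among cell cycle genes, WT replicate 1 was the lowest array for hypoxia genes, WT replicate 2 was low for red cell genes, and WT replicate 3 stood apart for 2 imprinted genes. Among the 739 X-linked genes that were fitted 173 were called (23.4%, against 23.5% of the genes reported), and 4 of 9 Y-linked genes were. The sex of the embryos is not given, so sex and genotype cannot be told apart for those genes, nor for the genes reported. With whole hearts as samples, fewer cells of a type and less RNA per cell cannot be told apart in any result below.

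Between double KO and WT hearts 4484 of 19108 genes (23.5%) differed at an adjusted p below 0.05: 1733 genes rose (9.07%) and 2751 fell (14.4%). At an unadjusted p below 0.05 there were 7003 genes. The changes of at least 1 log2 unit went mostly downward, with 608 falls (3.18%) against 159 rises (0.832%), 4.01% of all genes in sum. The median size of a called change was 0.59 log2 units, with quartiles of 0.43 and 0.86, and the median difference of all 19108 genes was 0.06. The arrays of the groups did not overlap for 41.3% of all genes. The share of rises among the calls was 38.6% and depended on the scaling: it was 51.5% after a further quantile normalisation and 31.6% after centring each array on its median. The number of calls ranged from 3118 to 4436 when 1 array of the pair of groups was left out, with the lowest number without double KO replicate 2; the number of rises was 1011 without that array and 1027 without WT replicate 1.

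**Figure D1:**
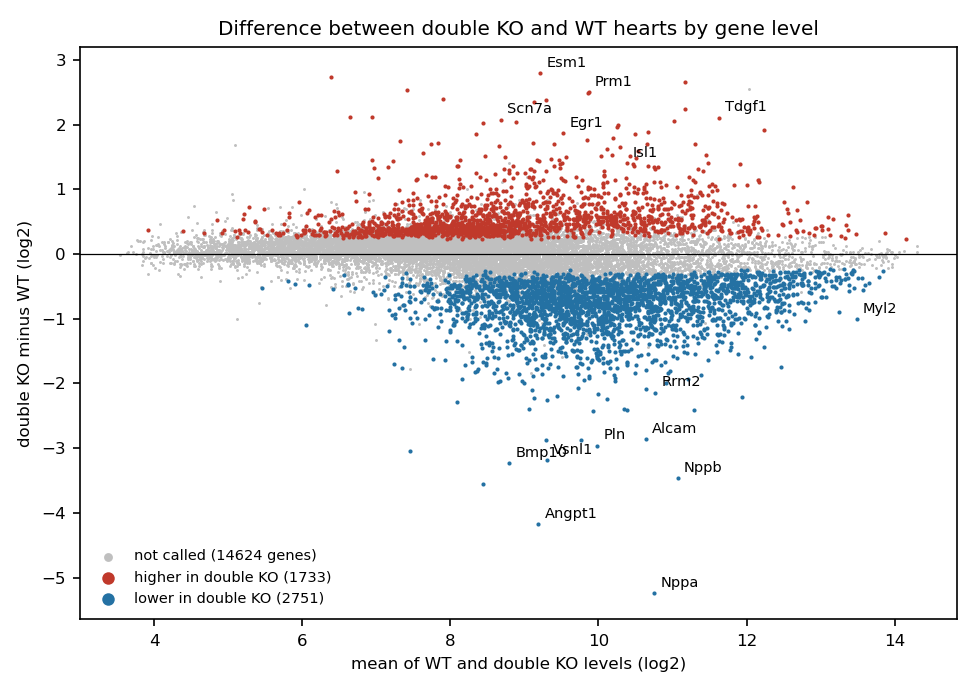
Each point is 1 of 19108 genes, with its mean log2 level in WT and double KO hearts on the horizontal axis and the log2 difference (double KO minus WT) on the vertical axis; red points are the 1733 genes called higher and blue points the 2751 called lower at an adjusted p below 0.05. Nppa, with a difference of -5.24, is the lowest point, and the falls reach further from 0 than the rises, of which Esm1 reaches 2.80.

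Direction went with level. The genes were put in order of their mean level and cut into 4 bins of 4777. In the dimmest bin 263 genes rose and 35 fell, in the second bin 457 rose and 208 fell, in the third 497 rose and 816 fell, and in the brightest 516 rose and 1692 fell. The median difference was 0.11, 0.13, 0.01 and -0.18 from the dimmest to the brightest bin. The lower spread of values in double KO arrays moved with this pattern, and its part in it was not tested. A modest fall of a bright gene group has to be read beside the -0.18 of its bin.

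**Figure D2:**
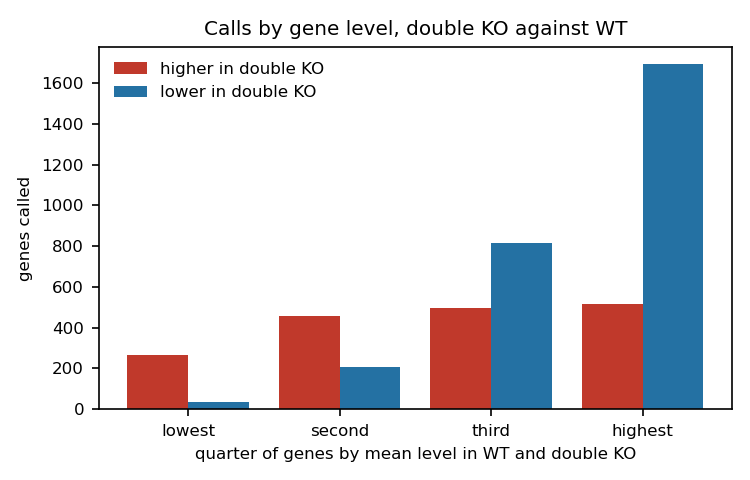
Bars give the number of genes called higher (red) and lower (blue) in double KO against WT hearts, with the 19108 genes split by mean level into 4 bins of 4777. Rises outnumber falls in the dimmest bin (263 against 35), and falls outnumber rises in the brightest (1692 against 516).

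Genes of the chamber programme held the largest fall of the comparison. In a list of 24 genes that mark chambers and trabeculae, 14 fell and 1 rose, with a median difference of -0.66. Nppa, the gene of atrial natriuretic peptide, read 13.29, 13.52 and 13.29 in WT and 8.01, 8.37 and 8.02 in double KO, a 37.7-fold fall (-5.24, SE 0.26, adjusted p = 4.14e-07). It fell furthest of all 19108 genes. Nppb, which encodes brain natriuretic peptide and lies next to Nppa on chromosome 4, read 12.79, 13.13 and 12.49 in WT and 9.16, 9.79 and 9.07 in double KO (11.0-fold lower, -3.46, SE 0.26). Bmp10, a trabecular growth factor that sustains cardiomyocyte proliferation, read 10.16, 10.86 and 10.20 in WT against 7.39, 7.21 and 6.92 (-3.23, SE 0.21). No array of these 3 genes overlapped between the groups, which the choice of the largest falls required. Among all genes 41.3% showed no overlap.

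Promoter windows of 3 of these falling genes are shown so that the letters next to the start sites can be seen beside the values. The windows hold the 250 bases before the RefSeq start site in GRCm38.p6, in the direction of transcription. Capitals mark matches, on either strand, to TNAAGTG, a letter pattern of the NK2 homeobox class, and AGGTGT, a T-box half-site. Nppa lies on the + strand at chr4:148000472-148000721, Lrrc10 on the + strand at chr10:117045091-117045340 and Bmp10 on the + strand at chr6:87428744-87428993.
Nppa: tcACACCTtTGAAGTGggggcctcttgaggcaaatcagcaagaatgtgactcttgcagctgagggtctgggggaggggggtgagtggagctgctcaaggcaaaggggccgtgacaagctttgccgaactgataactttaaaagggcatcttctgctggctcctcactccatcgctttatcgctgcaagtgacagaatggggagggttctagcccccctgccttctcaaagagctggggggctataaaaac
Lrrc10: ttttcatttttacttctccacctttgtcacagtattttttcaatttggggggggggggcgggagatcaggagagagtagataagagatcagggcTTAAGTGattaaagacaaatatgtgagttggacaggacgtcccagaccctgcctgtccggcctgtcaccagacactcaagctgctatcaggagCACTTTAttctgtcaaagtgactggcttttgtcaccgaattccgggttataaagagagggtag
Bmp10: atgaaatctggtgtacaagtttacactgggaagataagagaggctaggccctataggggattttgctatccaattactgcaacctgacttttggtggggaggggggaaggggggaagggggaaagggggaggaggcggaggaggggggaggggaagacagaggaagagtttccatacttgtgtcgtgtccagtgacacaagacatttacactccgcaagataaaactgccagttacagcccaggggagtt
In the Nppa window AGGTGT lies on the minus strand at bases -248 to -243 and TNAAGTG on the plus strand at -241 to -235, and in the Lrrc10 window TNAAGTG occurs at -156 to -150 and, on the minus strand, at -63 to -57. The Bmp10 window holds neither pattern. Such short patterns are common: TNAAGTG is in the windows of 10.5% of 14959 tested genes with a promoter in the table and AGGTGT in 12.8%, against 9.29% and 10.6% of the genes that fell and 8.01% and 15.6% of those that rose. Over all 31396 windows off the sex chromosomes the shares were 10.1% and 12%. Each pattern was in 3 of 21 chamber genes.

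Other chamber genes fell less but clearly. Lrrc10, a cardiomyocyte leucine-rich repeat protein at the contractile apparatus, read 8.77, 9.48 and 9.12 in WT and 7.06, 7.32 and 7.21 in double KO (3.81-fold lower). Gja5, which encodes connexin 40, read 10.25, 10.24 and 9.97 against 8.52, 7.49 and 8.15 (-2.10, SE 0.36, adjusted p = 0.00124). Pln, the gene of the calcium pump inhibitor phospholamban, read 11.46, 11.86 and 11.05 against 8.71, 8.44 and 8.34 (7.79-fold lower). Among the chamber contractile proteins, ventricular light chain Myl2 fell from 13.99 ± 0.05 to 12.99 ± 0.12 (mean ± SD, n = 3 and 3 arrays), Myh6 fell by 0.81 and the cardiac troponin Tnni3 fell by 0.67. Their arrays did not overlap between the groups, as was so for 41.3% of all genes. Myh7, the slow myosin heavy chain, was the list's only rise, at 0.40 (SE 0.10, adjusted p = 0.0111).

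Compared with each factor lost alone, the chamber genes went different ways. For Nppa the Nkx2-5 KO arrays read 11.26, 10.08 and 10.82 and the Tbx5 KO arrays 10.45, 10.09 and 9.63, and the double KO was lower than either (adjusted p = 0.000209 and 0.000589). Nppb did not differ beyond the spread from Nkx2-5 KO (-0.67, adjusted p = 0.155) or from Tbx5 KO (-0.28, adjusted p = 0.552). Bmp10 stood at 11.09, 10.34 and 10.65 in Nkx2-5 KO and at 7.38, 7.17 and 7.46 in Tbx5 KO, so the difference of the double KO was -3.52 against the former and -0.17 against the latter (adjusted p = 4.64e-06 and 0.676). Gja5, Kcna5 and Pln likewise showed no difference past the threshold between double KO and either KO of 1 gene. These comparisons share the double KO arrays.

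**Figure D3:**
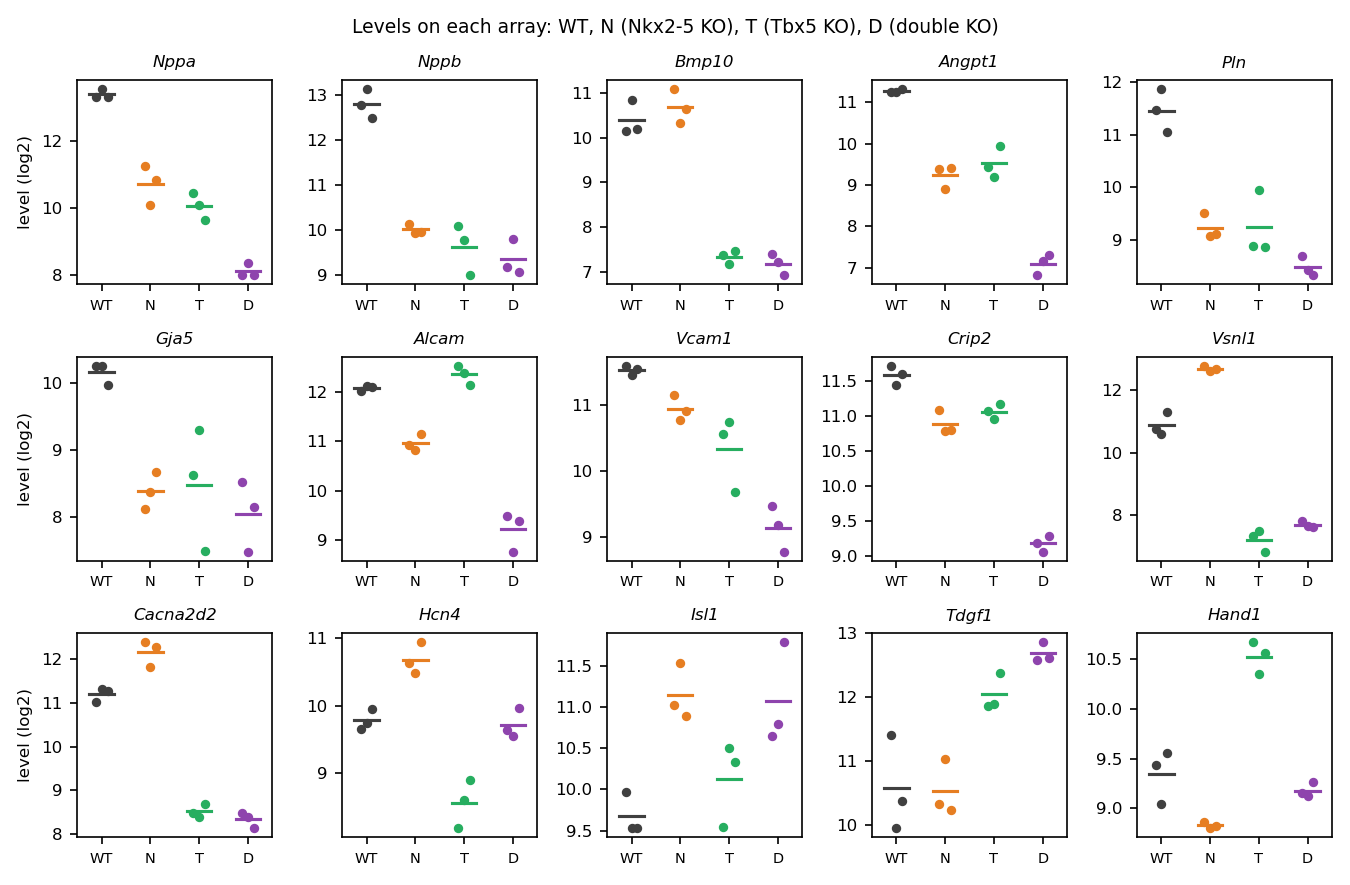
Each panel gives 1 gene, with the log2 level on the vertical axis (scales differ and do not start at 0) and the 4 groups of 3 arrays on the horizontal axis: WT, N (Nkx2-5 KO), T (Tbx5 KO) and D (double KO). Points are arrays and lines are means; Nppa and Angpt1 are lowest in D, Bmp10, Vsnl1 and Cacna2d2 are low in T and D, and Hcn4 in D (9.63, 9.55 and 9.96) is back within reach of WT (9.65, 9.74 and 9.95).

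Over all genes the double KO differed from Nkx2-5 KO in 1052 genes (5.51%; 192 or 1% higher, 860 or 4.5% lower) and from Tbx5 KO in 2039 genes (10.7%; 542 or 2.84% higher, 1497 or 7.83% lower). Against WT, 841 genes were called in Nkx2-5 KO (4.4%; 1.84% higher, 2.56% lower) and 427 in Tbx5 KO (2.23%; 0.984% higher, 1.25% lower). The count against Nkx2-5 KO rested on single arrays: it was 494 without double KO replicate 2, 498 without Nkx2-5 KO replicate 1 and 534 without Nkx2-5 KO replicate 2. Against Tbx5 KO it was 1232 without double KO replicate 2 and 1295 without Tbx5 KO replicate 1. Both shares of rises also moved with a further quantile normalisation, from 18.3% to 41.7% and from 26.6% to 45.4%.

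Of 28 ion channel and conduction genes 8 fell and 2 rose (median difference 0.07), and of 24 calcium handling genes 7 fell and 4 rose (median -0.01), where 14.4% of all genes fell and 9.07% rose. After a further quantile normalisation the calcium genes counted 5 falls and 8 rises. The ion channel rises were 0 without WT replicate 1 and 1 without double KO replicate 1 or 2. Cacna2d2, an auxiliary subunit of voltage-gated calcium channels, read 11.02, 11.32 and 11.27 in WT and 8.48, 8.38 and 8.13 in double KO (7.33-fold lower). It was 12.39, 11.82 and 12.28 in Nkx2-5 KO and 8.47, 8.38 and 8.69 in Tbx5 KO. Kcna5, an atrial potassium channel, read 9.82, 9.94 and 10.08 against 8.18, 7.72 and 8.06 (3.89-fold lower). Kcnj5, a subunit of the acetylcholine-gated potassium channel, fell by 1.02, and Abcc9, the sulfonylurea receptor subunit of ATP-sensitive channels, fell by 1.47. Bves, a Popeye domain membrane protein that binds cyclic AMP, fell from 10.49 ± 0.18 to 9.39 ± 0.10. Kcnj5, Abcc9 and Bves were lower in double KO than in Nkx2-5 KO and than in Tbx5 KO as well, with differences from -0.74 to -1.19.

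A smaller set of calcium genes rose. Cacna1c, the pore subunit of the L-type calcium channel, read 9.97, 9.77 and 9.61 in WT and 10.90, 10.96 and 11.01 in double KO (1.18, SE 0.13, adjusted p = 7.84e-05). Stim1, the sensor of calcium in the reticulum, rose from 8.12 ± 0.15 to 9.11 ± 0.15. In the reticulum itself the calsequestrin genes Casq1 and Casq2 fell by 1.04 and 1.12. The pacemaker channel gene Hcn4 did not differ from WT (-0.07, SE 0.18, adjusted p = 0.810). The double KO differed by -0.97 from Nkx2-5 KO (10.63, 10.48 and 10.94) and by 1.15 from Tbx5 KO (8.18, 8.60 and 8.90), with adjusted p = 0.00851 and 0.00153.

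The sarcomere itself changed member by member. Of 31 thin filament and Z-disc genes 8 fell and 4 rose (median -0.02), with 2 rises without WT replicate 1, WT replicate 3 or double KO replicate 2, and of 14 thick filament genes 2 fell and 4 rose (median 0.09). Myoz2, a Z-disc protein that binds calcineurin, read 9.76, 10.10 and 8.67 in WT and 7.86, 7.77 and 7.38 in double KO. Csrp3, the muscle LIM protein, fell from 13.11 ± 0.16 to 12.18 ± 0.15, and Xirp1, which binds actin where cardiomyocytes join, fell by 0.80. Against them Ldb3, the Z-disc protein cypher, rose by 0.46, and Myh7b rose from 9.22, 9.47 and 9.22 to 10.07, 10.19 and 9.87. The largest falls also included the paired LIM genes Crip1 and Crip2 on chromosome 12: Crip2 read 11.71, 11.43 and 11.60 in WT and 9.19, 9.06 and 9.28 in double KO, and Crip1 read 12.46, 12.60 and 12.44 against 10.09, 10.10 and 10.08. Both fell by 2.41, and against Nkx2-5 KO and Tbx5 KO their differences ran from -1.34 to -1.88.

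Cardiac transcription factors moved both ways, with 5 rises and 6 falls among 27 (10 and 5 after a further quantile normalisation). Without double KO replicate 2 they counted 2 rises and 3 falls, and the falls were 2 without WT replicate 2 and 3 without double KO replicate 1. Gata6, a zinc-finger partner of both lost factors, rose from 10.29, 10.46 and 10.31 to 10.88, 11.12 and 11.09, and Meis1, a homeobox cofactor, rose by 0.50. Gata4 read 10.88, 11.05 and 11.02 in WT and 11.07, 11.22 and 11.37 in double KO and was not called (0.24, adjusted p = 0.219). Hopx, an atypical homeodomain protein of differentiating myocardium, read 10.47, 10.60 and 10.57 against 8.92, 8.77 and 9.12 (3.05-fold lower), and Irx4, a ventricular homeobox gene, fell by 0.89. Tbx20, another T-box factor of the heart, was not called (0.06, SE 0.14, adjusted p = 0.771). Hand1, which marks the outer curvature of the left ventricle, read 9.44, 9.04 and 9.56 in WT and 9.15, 9.12 and 9.26 in double KO (adjusted p = 0.365), while Tbx5 KO stood at 10.67, 10.35 and 10.56, for a difference of -1.36 between double KO and Tbx5 KO (adjusted p = 7.68e-05). Of 29 trophoblast and decidua genes, 7 were higher in Tbx5 KO than in WT and none lower, where 0.984% of all genes were higher. In double KO 7 were lower than in Tbx5 KO and none higher, where 7.83% of all genes were lower. Against WT the double KO had 1 rise and 1 fall in that list. The part of such tissue in the Hand1 values was not tested.

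Of 21 genes of the venous pole and atrioventricular canal 8 fell, 3 rose and 10 were not called (median -0.23). Vsnl1, a neuronal calcium sensor of the sinus venosus, read 10.78, 10.60 and 11.32 in WT and 7.83, 7.67 and 7.62 in double KO (9.13-fold lower), with 12.79, 12.61 and 12.68 in Nkx2-5 KO and 7.33, 7.50 and 6.84 in Tbx5 KO. The atrial nuclear receptor Nr2f2 fell from 10.24 ± 0.29 to 8.88 ± 0.42, and Tbx18, a sinus horn T-box gene, fell by 0.94. Rspo3, a Wnt agonist, read 10.83, 10.16 and 10.08 against 8.96, 9.32 and 8.62, with a difference of -2.06 from Tbx5 KO. Wnt2, expressed at the venous pole, read 8.58, 8.62 and 9.02 in WT, 9.83, 9.73 and 10.02 in Tbx5 KO and 8.29, 8.04 and 7.50 in double KO. Foxf1, a forkhead gene of the mesoderm next to the foregut, went up, from 8.85, 9.60 and 10.83 to 11.08, 11.37 and 11.26, with WT arrays that spread widely.

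Of 26 progenitor genes of the second heart field 9 rose, 1 fell and 16 were not called (median 0.34); the rises numbered 5 without double KO replicate 2 and 5 without double KO replicate 3. Tdgf1, the Nodal co-receptor cripto, read 11.41, 9.95 and 10.37 in WT and 12.59, 12.86 and 12.61 in double KO (4.30-fold higher). Isl1, the LIM homeobox gene of cardiac progenitors, read 9.97, 9.53 and 9.53 in WT and 10.65, 10.80 and 11.79 in double KO (1.41, SE 0.31, adjusted p = 0.00524), and the Nkx2-5 KO arrays at 11.03, 11.54 and 10.89 lay in the same range. The hedgehog receptor and target Ptch1 rose by 0.73 and the hedgehog effector Gli1 by 0.41. Prdm1, a zinc-finger repressor of pharyngeal progenitors, read 7.45, 8.11 and 8.41 against 9.33, 9.37 and 9.77. Sema3c, a semaphorin of the outflow tract, was the member that fell, from 10.17, 9.94 and 9.51 to 8.31, 7.83 and 8.58.

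Of 26 genes of fibroblast growth factor (FGF) signalling 8 rose, 1 fell and 17 were not called (median 0.29), with 5 rises when only the brighter genes were tested. The fall was lost without WT replicate 2 or 3 and without double KO replicate 2 or 3. Etv5, an ETS factor induced by FGF, read 9.77, 9.70 and 9.93 in WT and 10.97, 10.94 and 11.55 in double KO (2.56-fold higher). The feedback inhibitors Il17rd and Spred2 rose by 1.54 and 0.61, and the phosphatase Dusp4 rose by 1.09. Fgf15, a ligand of pharyngeal tissue, rose from 7.91 ± 0.06 to 8.48 ± 0.08. Retinoic acid genes had 5 rises and no fall among 19 (median 0.23), a count that was 1 without WT replicate 1, 3 without double KO replicate 1 and 2 without double KO replicate 2. Retinoic acid genes were thus called in 26.3% of cases, BMP and TGF-beta genes in 5 of 31 and Wnt genes in 8 of 36, against 23.5% of all genes.

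The largest fall after Nppa was Angpt1, which encodes angiopoietin 1, a myocardial ligand that signals to the endocardial receptor Tek and shapes trabeculae. It read 11.24, 11.24 and 11.31 in WT and 6.82, 7.16 and 7.31 in double KO, an 18.0-fold fall (-4.17, SE 0.19, adjusted p = 3.34e-07). Its level was 9.39, 8.89 and 9.42 in Nkx2-5 KO and 9.43, 9.19 and 9.94 in Tbx5 KO, so that the double KO differed from them by -2.14 and -2.43. Tek read 10.14, 11.09 and 10.85 in WT and 9.13, 9.80 and 9.57 in double KO (-1.19, SE 0.23). Among 25 genes of trabeculation signalling 6 rose and 6 fell (median -0.06). Erbb2, the co-receptor for neuregulin, fell from 10.13 ± 0.13 to 9.40 ± 0.13, while Notch1 and its endothelial ligand Dll4 rose by 0.70 and 0.69. Vegfa, the vascular endothelial growth factor, read 10.42, 11.03 and 10.44 against 11.94, 11.85 and 11.65, and its receptor gene Flt1 rose by 1.09. Of 32 endocardial and endothelial genes 7 fell and 2 rose (median 0.11), so that 28.1% were called against 23.5% of all genes. The falls numbered 4 without WT replicate 2 and 4 without double KO replicate 1. The summed level of that list was 14.19 to 14.78 in WT and 14.34 to 14.47 in double KO. Npr3, a natriuretic clearance receptor of endocardium, fell by 1.24.

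Adhesion genes of the myocardium changed sharply in a few members. Alcam, an immunoglobulin adhesion protein of cardiomyocytes, read 12.01, 12.11 and 12.09 in WT, 12.53, 12.39 and 12.15 in Tbx5 KO, 10.92, 10.83 and 11.14 in Nkx2-5 KO and 9.49, 8.76 and 9.38 in double KO (7.27-fold below WT). The double KO differed by -1.75 from Nkx2-5 KO and by -3.15 from Tbx5 KO. Vcam1, a ligand of integrin alpha 4, read 11.60, 11.46 and 11.55 in WT and 9.47, 9.18 and 8.78 in double KO (-2.39, SE 0.24), and Itga4, the integrin gene, fell from 9.08 ± 0.80 to 7.49 ± 0.12. Desmosomal Dsp and Jup rose by 0.63 and 1.02, the epithelial cadherin Cdh1 rose by 1.02 (adjusted p = 0.0173, 0.0672 without WT replicate 2 and 0.0599 without double KO replicate 3), and alpha-T-catenin Ctnna3 rose by 1.37. In all, 7 of 26 adhesion genes fell and 5 rose (5 and 10 after a further quantile normalisation). Of 44 matrix genes 6 rose and 6 fell (13 and 3 after that normalisation), so that 27.3% were called against 23.5% of all genes. The matrix glycoprotein tenascin C (Tnc) read 10.16, 9.55 and 9.52 against 11.04, 11.36 and 11.59, and Sparcl1, a relative of osteonectin, rose from 10.45 ± 0.32 to 12.15 ± 0.21. The matrix rises numbered 3 without WT replicate 1, and the falls 2 without WT replicate 3 or double KO replicate 2 and 3 without WT replicate 2 or double KO replicate 1.

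**Figure D4:**
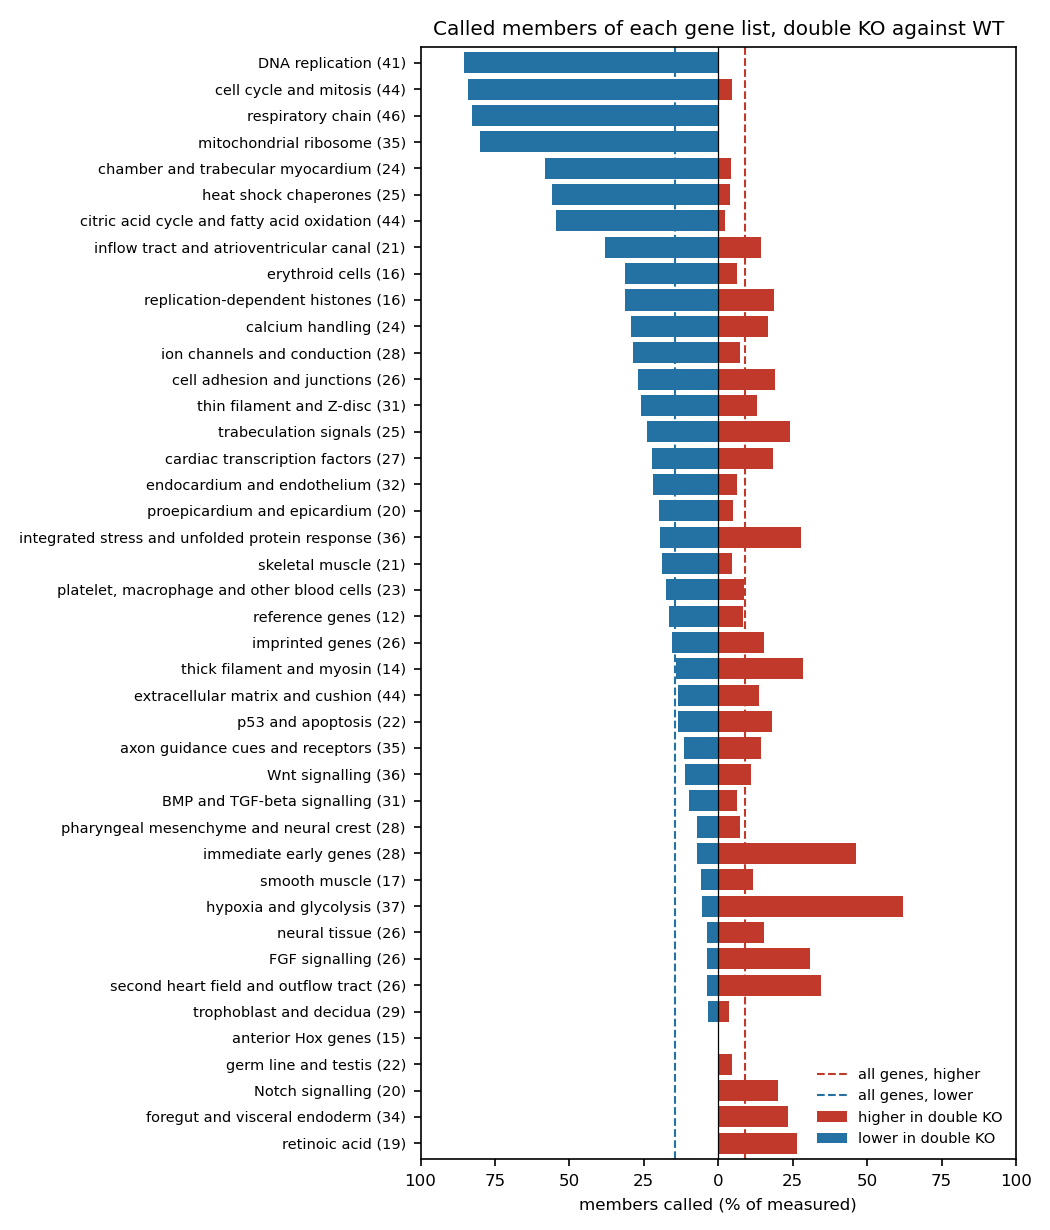
Bars give, for each gene list with at least 10 measured members (number in parentheses), the percentage of members called lower (blue, to the left) and higher (red, to the right) in double KO against WT hearts; dashed lines are the 14.4% and 9.07% of all genes. DNA replication (35 of 41 lower) and cell cycle (37 of 44 lower) stand at the top, and hypoxia and glycolysis has the longest bar to the right (23 of 37 higher).

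Genes of cell division fell together. Of 44 cell cycle and mitosis genes 37 fell and 2 rose, with a median difference of -1.12. The list's median level was 11.13, 11.08 and 10.99 on the WT arrays, 10.99, 11.01 and 10.80 in Nkx2-5 KO, 10.99, 10.85 and 11.04 in Tbx5 KO and 9.66, 9.73 and 10.45 in double KO. Both KOs of 1 gene thus lay near WT, and double KO replicate 3 lay between them and the other 2 double KO arrays. Against Nkx2-5 KO 32 of the 44 genes were lower and none higher, and against Tbx5 KO 32 were lower and 2 higher, beside 4.5% and 7.83% of all genes that were lower in these comparisons.

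Falls included genes of mitosis and of G1. Birc5, the survivin of the chromosomal passenger complex, read 12.32, 12.36 and 12.21 in WT and 10.37, 10.74 and 10.90 in double KO (3.09-fold lower). Anln, the cytokinesis scaffold anillin, read 11.11, 11.40 and 11.20 against 9.08, 9.59 and 9.91. Cdk1, the mitotic kinase, read 12.28, 12.41 and 12.36 against 10.27, 10.75 and 11.52 (-1.51, SE 0.23, adjusted p = 0.000508). Double KO replicate 3 was the highest of the mutant arrays for each of these and for the proliferation marker Mki67 (11.49, 11.33 and 11.15 against 9.64, 9.77 and 10.85). Upstream of division, Myc fell from 10.07 ± 0.16 to 8.70 ± 0.14 and the G1 cyclin Ccnd1 fell by 1.09. The 2 rises were in genes that restrain the cycle: the retinoblastoma gene Rb1 rose from 8.95 ± 0.10 to 10.09 ± 0.09, and the inhibitor Cdkn1b rose by 0.53 (adjusted p = 0.0140, 0.0631 without WT replicate 1, 0.0525 without WT replicate 3 and 0.0998 with the mean of its probe sets). Another inhibitor, Cdkn2c, was among the falls. Its call was lost without WT replicate 3 (adjusted p = 0.151) and without double KO replicate 1 (0.0742), 2 (0.0514) or 3 (0.131).

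DNA replication genes followed, with 35 of 41 lower, none higher and a median difference of -1 log2 unit. Rrm2, the regulated subunit of ribonucleotide reductase, read 11.95, 11.72 and 11.85 in WT and 9.48, 9.15 and 10.46 in double KO (4.41-fold lower), and the primase gene Prim1 read 11.14, 11.06 and 11.02 against 8.14, 9.09 and 9.48. Gins1, part of the replicative helicase, fell by 1.95, and the flap nuclease Fen1 read 9.92, 9.78 and 9.85 against 7.83, 7.89 and 8.29. The DNA clamp Pcna fell from 13.05 ± 0.08 to 12.01 ± 0.20. For this list the Nkx2-5 KO arrays lay between WT and double KO, at medians of 9.96, 10.25 and 9.79 against 10.51, 10.59 and 10.50 in WT and 9.23, 9.16 and 9.58 in double KO. Of the 41 genes 21 were lower than in Nkx2-5 KO and 33 lower than in Tbx5 KO, and none was higher in either. The count of falls against WT for these 2 proliferation lists was 35 to 37 under both other scalings.

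Promoters of 2 falling replication genes are shown because E2F factors drive this class at the start of S phase. Capitals mark TTTCCCGC or TTTGGCGC, searched on both strands of the 250 bases before the start (GRCm38.p6, RefSeq). Cdc6, the loader of the replicative helicase, lies on the + strand at chr11:98907901-98908150, and Mcm6, a helicase subunit, on the - strand at chr1:128359706-128359955.
Cdc6: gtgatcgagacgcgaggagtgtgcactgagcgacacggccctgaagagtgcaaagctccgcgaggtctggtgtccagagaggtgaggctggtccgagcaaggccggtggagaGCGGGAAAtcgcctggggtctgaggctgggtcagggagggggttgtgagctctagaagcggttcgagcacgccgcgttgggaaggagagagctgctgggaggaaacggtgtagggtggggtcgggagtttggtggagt
Mcm6: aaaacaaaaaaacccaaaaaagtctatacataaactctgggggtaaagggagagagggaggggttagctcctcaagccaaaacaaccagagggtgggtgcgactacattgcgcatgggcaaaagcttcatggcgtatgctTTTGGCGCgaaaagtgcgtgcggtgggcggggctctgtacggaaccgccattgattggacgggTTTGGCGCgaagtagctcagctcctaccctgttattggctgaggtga
The Cdc6 match lies on the minus strand at -138 to -131, and Mcm6 has matches at -110 to -103 and -47 to -40. Cdc6 fell from 9.95 ± 0.36 to 8.34 ± 0.30, and Mcm6 read 11.18, 11.27 and 11.45 against 9.80, 9.67 and 10.62. Matches were in 5 of 34 replication genes with a window, in 2.1% of all tested genes, in 3.86% of the genes that fell and in 0.974% of those that rose; over all windows the share was 1.29%.

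Mitochondrial genes fell in large numbers. Of 46 respiratory chain genes 38 fell and none rose (median -0.50). Of 35 mitochondrial ribosome genes 28 fell and none rose (median -0.75), and of 44 genes of the citric acid cycle and fatty acid oxidation 24 fell and 1 rose (median -0.39). These genes are bright, with a median WT level of 12.72 for the respiratory chain, and the median difference of the brightest bin was -0.18. After a further quantile normalisation the falls numbered 25, 24 and 15, still with no rise in the first 2 lists and 3 in the last.

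Within these lists the ribosomal protein gene Mrpl46 read 11.12, 10.99 and 10.87 in WT and 9.69, 9.68 and 9.40 in double KO, and Mrpl19 fell from 10.17 ± 0.13 to 8.88 ± 0.10. Idh3a, a subunit of isocitrate dehydrogenase, read 11.66, 11.38 and 11.30 against 9.87, 9.92 and 9.91 (2.92-fold lower). Lpl, the lipoprotein lipase that supplies fatty acids to the heart, read 10.50, 10.59 and 10.30 against 8.55, 8.74 and 8.43 (3.70-fold lower). The complex I subunit Ndufs1 and the complex III subunit Uqcrq each fell by 0.92. Respiratory chain medians were 12.78, 12.70 and 12.69 in WT, 12.35, 12.40 and 12.47 in Nkx2-5 KO, 12.63, 12.39 and 12.57 in Tbx5 KO and 12.24, 12.05 and 12.11 in double KO, so the double KO arrays were the lowest of all 12.

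**Figure D5:**
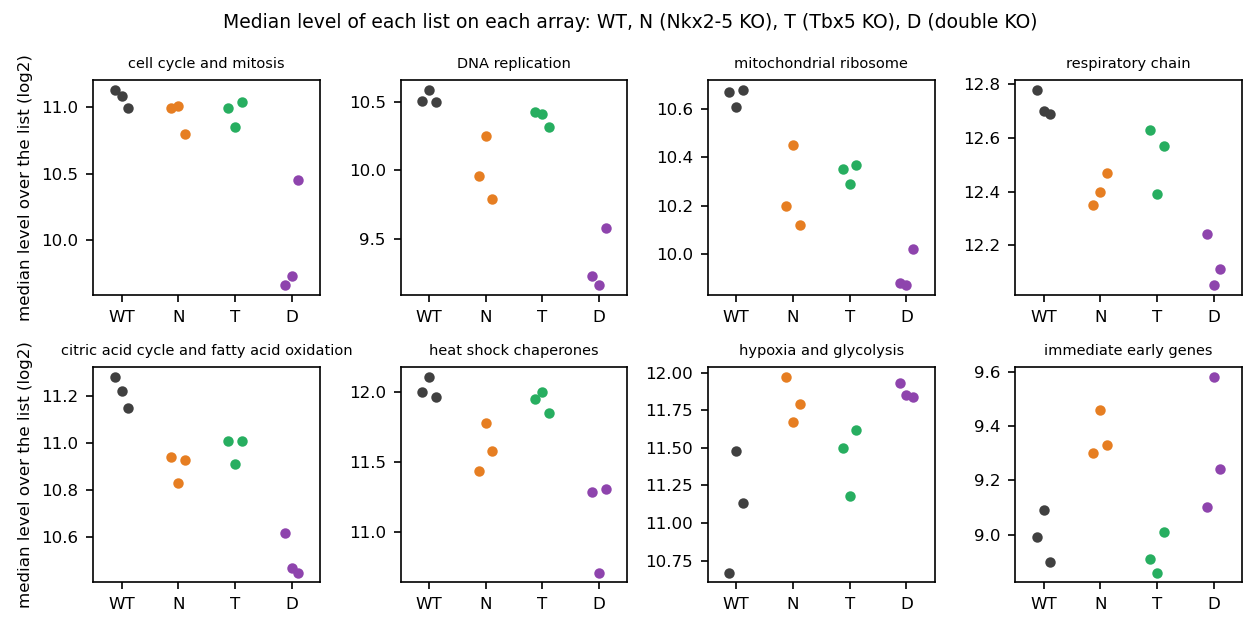
Each panel gives the median log2 level over the measured members of 1 gene list on each of the 12 arrays, grouped as WT, N (Nkx2-5 KO), T (Tbx5 KO) and D (double KO); vertical scales differ and do not start at 0. In the cell cycle panel only the D arrays (9.66, 9.73 and 10.45) lie apart from WT (11.13, 11.08 and 10.99), while in the hypoxia panel the N and D arrays lie together above WT.

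Genes induced by low oxygen, many of them glycolytic, rose: 23 of 37 rose and 2 fell, with a median difference of 0.54. Kdm3a, a histone demethylase induced by hypoxia, read 10.37, 11.17 and 10.76 in WT and 12.03, 12.09 and 12.06 in double KO (2.45-fold higher). Slc2a3, a glucose transporter, read 10.90, 11.57 and 11.15 against 12.51, 12.69 and 12.63, and Ndrg1 read 7.97, 8.91 and 8.56 against 9.73, 10.01 and 10.03. Hif1a itself, the oxygen-regulated transcription factor, fell by 0.44 (adjusted p = 0.00359, and 0.0856 after a further quantile normalisation). The WT arrays spread far more than the double KO ones: the list's medians were 10.67, 11.48 and 11.13 in WT and 11.93, 11.85 and 11.84 in double KO. They were 11.97, 11.67 and 11.79 in Nkx2-5 KO and 11.50, 11.18 and 11.62 in Tbx5 KO. Against Nkx2-5 KO none of the 37 genes was called, and against Tbx5 KO 7 were higher and 1 lower.

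Promoters of 2 rising genes are shown with the core of the hypoxia response element, ACGTG on either strand, in capitals. Ankrd37, an ankyrin repeat gene, lies on the - strand at chr8:45999851-46000100 and Egln3, a prolyl hydroxylase that marks HIF proteins for decay, on the - strand at chr12:54203875-54204124.
Ankrd37: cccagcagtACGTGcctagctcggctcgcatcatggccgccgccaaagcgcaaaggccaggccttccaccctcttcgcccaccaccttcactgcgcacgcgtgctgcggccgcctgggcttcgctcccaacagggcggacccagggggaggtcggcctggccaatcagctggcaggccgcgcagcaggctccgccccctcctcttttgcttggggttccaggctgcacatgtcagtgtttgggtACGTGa
Egln3: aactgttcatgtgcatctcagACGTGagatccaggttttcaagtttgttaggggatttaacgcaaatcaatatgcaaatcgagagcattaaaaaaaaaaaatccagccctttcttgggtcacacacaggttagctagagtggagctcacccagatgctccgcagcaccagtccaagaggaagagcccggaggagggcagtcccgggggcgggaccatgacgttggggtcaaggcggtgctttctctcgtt
Matches lie at -241 to -237 and -6 to -2 for Ankrd37 and at -229 to -225 for Egln3. Ankrd37 read 9.85, 10.73 and 9.83 in WT and 11.39, 11.55 and 11.50 in double KO, and Egln3 read 7.84, 10.47 and 9.49 against 11.30, 11.22 and 11.26, so that its WT arrays alone covered more than 2 log2 units. ACGTG was in 20 of 31 genes of the list with a window (64.5%), in 21% of all tested genes, in 24.5% of the genes that rose and in 24.1% of those that fell; its share over all windows was 16.6%.

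Stress genes moved in both directions. Of 36 genes of the integrated stress and unfolded protein responses 10 rose and 7 fell (median 0.07). The rises were led by the transcription factor Atf3, which read 9.62, 9.88 and 9.67 in WT and 11.43, 12.12 and 11.30 in double KO (3.71-fold higher), and included Ddit3, which encodes CHOP (9.93, 10.60 and 9.81 against 11.68, 11.27 and 11.29). The falls were Hspa5, Sdf2l1, Creld2, Manf, Calr and Pdia4, whose products work in the reticulum, and the glycyl-tRNA synthetase gene Gars. Creld2 read 10.59, 10.89 and 10.81 in WT against 9.60, 9.84 and 9.54 in double KO. The rises numbered 6 without double KO replicate 1. The call of Hspa5 was lost when WT replicate 1, 2 or 3 or double KO replicate 2 or 3 was left out (adjusted p from 0.0794 to 0.128), that of Sdf2l1 without WT replicate 3 (0.0574) or double KO replicate 2 (0.0671), and that of Gars without double KO replicate 2 (0.0507). The falls numbered 4 without double KO replicate 2 and 3 after a further quantile normalisation, when Hspa5, Sdf2l1, Pdia4 and Gars were no longer called. Of 25 heat shock chaperone genes 14 fell and 1 rose (median -0.28), with 8 falls after a further quantile normalisation. The list is bright, with a median WT level of 12.03, and the median difference of the brightest bin was -0.18. The rise was lost without WT replicate 1 or 3 and without double KO replicate 2 or 3. Hsph1, a cytosolic exchange factor, read 11.54, 11.52 and 11.65 against 9.88, 9.71 and 10.21, and Ahsa1, an activator of Hsp90, read 12.56, 12.45 and 12.51 against 11.16, 10.62 and 11.31.

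Immediate early genes, which respond to growth factors, stretch and handling within minutes, rose in 13 of 28 cases and fell in 2 (median 0.41). Egr1, a zinc-finger factor, read 8.16, 8.84 and 8.76 in WT and 10.15, 10.90 and 10.34 in double KO (3.67-fold higher), and Btg2, an antiproliferative gene, read 9.68, 9.36 and 9.35 against 10.72, 11.32 and 11.31. Jun, a subunit of AP-1, read 10.30, 10.40 and 10.44 against 11.39, 11.58 and 11.38. Double KO replicate 2 was the highest array for Egr1, Btg2 and Jun. The time between dissection and lysis is not given for the samples, and its part in these values was not tested. For Egr1 the Tbx5 KO arrays read 8.61, 8.36 and 8.70, in the range of WT, and the Nkx2-5 KO arrays read 9.42, 10.43 and 10.18. Of the 28 genes 11 were higher than in Tbx5 KO, and 1 was higher and 1 lower than in Nkx2-5 KO.

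Red cell genes were uneven among the WT arrays. Of 16 erythroid genes 5 fell and 1 rose (median -0.96), and the falls ranged from 1, without double KO replicate 2, to 14, without WT replicate 2; there were 2 without WT replicate 1 and 2 without WT replicate 3. Embryonic globin Hba-x read 13.71, 12.56 and 13.74 in WT and 11.56, 10.75 and 12.45 in double KO (-1.75, SE 0.40, adjusted p = 0.00780). The list's summed level was 14.77 to 16.01 in WT and 14.20 to 14.95 in double KO, so its ranges overlapped. Of 23 genes of platelets, macrophages and other blood cells 4 fell, 2 rose and 17 were not called (median 0.06). The called share of this list was 26.1%, against 23.5% of all genes. Pf4, a platelet chemokine, read 10.72, 9.40 and 10.50 against 6.87, 6.57 and 6.54, and its Nkx2-5 KO arrays spread from 6.51 to 11.44. Plac8, a cysteine-rich protein of several embryonic tissues, read 10.39, 9.98 and 10.33 against 7.76, 8.02 and 8.24, with 10.90, 10.46 and 10.66 in Tbx5 KO and 7.69, 8.37 and 7.10 in Nkx2-5 KO. The blood carried along in a dissected heart differs with dissection, and its part in these falls was not tested.

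Markers of tissues that border the heart were counted as a check of the dissection. Of all genes 23.5% were called, 9.07% higher and 14.4% lower. The called shares were 23.5% for foregut, 14.3% for pharyngeal and neural crest, 19.2% for neural and 25% for epicardial genes. Of 34 genes of foregut and visceral endoderm 8 rose and none fell (median 0.28), with 4 rises without WT replicate 2; the summed level was 13.80 to 14.06 in WT and 14.06 to 14.45 in double KO. Shh, the hedgehog ligand of the foregut, read 7.93, 7.90 and 8.17 in WT and 8.23, 8.38 and 8.41 in double KO, with an adjusted p of 0.0391; it rose past the threshold without WT replicate 1 (0.117) or 2 (0.125) and without double KO replicate 2 (0.110) or 3 (0.0954). Of 28 pharyngeal and neural crest genes 2 rose and 2 fell (1 and 1 without double KO replicate 2, and 1 fall without WT replicate 2, WT replicate 3 or double KO replicate 1), of 26 neural genes 4 rose and 1 fell (2 falls without WT replicate 3 or double KO replicate 3), and none of 15 anterior Hox genes was called by limma, although 1 was called lower under 6 alternatives: a further quantile normalisation, median centring, an intensity trend, array weights, the replicate block and leaving out WT replicate 1. When only the brighter genes were tested, the rises numbered 2 in the foregut list, 2 in the neural list and 1 in the pharyngeal list. The part of neighbouring tissue in the other results was not tested. Pax6, an eye and neural homeobox gene, read 7.40, 7.47 and 7.39 against 9.32, 9.20 and 9.28 (3.59-fold higher), with 9.22, 9.02 and 9.11 in Nkx2-5 KO, while the neuronal tubulin Tubb3 fell from 9.61, 9.78 and 10.77 to 8.43, 8.72 and 8.37. Epicardial genes had 4 falls and 1 rise among 20, with Wt1 read at 9.70, 10.33 and 9.56 against 8.85, 8.95 and 9.10; of the falls 2 were left without WT replicate 2, without WT replicate 3, without double KO replicate 1 and without double KO replicate 3.

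Several of the largest rises lay outside any cardiac list. Esm1, a secreted endothelial proteoglycan of tip cells, led them at 7.32, 8.48 and 7.64 in WT and 10.91, 10.21 and 10.69 in double KO (6.94-fold higher). Scn7a, an atypical sodium channel, read 7.71, 7.47 and 7.74 against 9.73, 9.97 and 9.46, Susd4, a complement regulator, read 7.53, 8.11 and 7.92 against 9.53, 9.89 and 10.30, and the chemokine Cxcl12 read 8.92, 9.75 and 9.12 against 11.45, 11.24 and 10.98. Scn7a and Susd4 also lay above Nkx2-5 KO and Tbx5 KO, by 0.86 to 1.24 log2 units. Prm1, a protamine gene of spermatids, read 9.11, 8.28 and 8.46 against 11.12, 10.76 and 11.49, and the Nkx2-5 KO arrays read 11.40, 11.36 and 10.59. It was the single called member of 22 germ line genes. Ndufa4l2, a hypoxia-induced relative of a respiratory subunit, rose 5.11-fold, opposite to the respiratory chain list. Replication-dependent histones H2bc4, H2bc8 and H3c15 rose by 2.25, 2.06 and 2.53, whereas 5 of the 16 histone genes measured fell (2 without WT replicate 1 or double KO replicate 2, and 3 without double KO replicate 1). Histone genes are near-identical copies, so which copy a probe set reads is uncertain.

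Receptors of Cxcl12, picked after their values were seen, moved apart. The decoy receptor Ackr3 read 8.54, 9.66 and 9.16 in WT and 7.82, 7.16 and 7.40 in double KO (-1.66, SE 0.26), and the signalling receptor Cxcr4 rose by 0.90 (adjusted p = 0.0147, and 0.0544 without double KO replicate 2). Vegfc and Igfbp3, picked in the same way, read 8.03, 9.12 and 8.80 against 9.85, 10.12 and 9.86 and 8.44, 10.18 and 9.32 against 11.01, 10.89 and 10.89. Among falls of that kind were the spermidine synthase Srm (10.93, 10.71 and 11.29 against 9.21, 9.08 and 9.19) and the heparan sulfatase Sulf2 (10.09 ± 0.22 against 8.38 ± 0.25). For the vascular gene Vegfc and for Igfbp3 the WT arrays spread over more than 1 log2 unit and the double KO arrays did not.

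Imprinted genes were called in 8 of 26 cases (30.8%, against 23.5% of all genes), 4 in each direction. The falls numbered 2 without WT replicate 2 or double KO replicate 2 and 7 without double KO replicate 3. Meg3, a maternal long noncoding RNA, read 11.78, 11.78 and 11.28 in WT and 12.95, 12.70 and 12.51 in double KO, and Mest, expressed from the paternal allele, read 12.90, 13.46 and 13.13 against 11.93, 11.70 and 12.36. Igf2r read 10.30, 10.67 and 12.84 in WT and 13.24, 13.17 and 13.17 in double KO, and Grb10 read 8.56, 8.29 and 12.65 against 12.88, 12.80 and 11.80. WT replicate 3 lay near the mutant arrays for this pair, both of which are inhibitors of growth factor signalling. The call for Grb10 was lost with adjusted p = 0.138 without WT replicate 1, 0.140 without WT replicate 2, 0.0964 without double KO replicate 1 and 0.108 without double KO replicate 2.

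Genes beside the deleted loci were examined because tissue from targeted embryonic stem cells can carry flanking DNA of another strain. Of the 24 measured neighbours of Nkx2-5 on chromosome 17, 12 on each side, 10 were called (41.7%; 4 higher, 6 lower), and of the 24 neighbours of Tbx5 on chromosome 5, 5 were (20.8%; 3 higher, 2 lower), against 23.5% of all genes. The called Nkx2-5 neighbours numbered 5 without WT replicate 3, 5 without double KO replicate 2 and 6 without WT replicate 1. The called Tbx5 neighbours numbered 2 without WT replicate 1, 2 without double KO replicate 2 and 3 without WT replicate 3. Crebrf, a regulator of the stress factor CREB3 beside Nkx2-5, had the largest of these changes: it read 7.47, 8.72 and 8.09 in WT, 10.34, 9.90 and 9.94 in Nkx2-5 KO, 8.53, 8.58 and 9.86 in Tbx5 KO and 10.55, 10.77 and 10.14 in double KO (5.24-fold above WT). The strain of the flanking DNA is not given, and its part in these values was not tested.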

How the data were processed

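The authors deposited log2 levels of 35557 probe sets for 12 Affymetrix arrays, 3 per group; per the labels' protocols, RNA was isolated with PicoPure, amplified with NuGEN Ovation and labelled with NuGEN Encore. The summarisation and normalisation are not given in the sources used here, and a normalisation that sets arrays to 1 scale hides any change common to all genes. The values ran from 3.21 to 14.7, with array medians of 8.05 to 8.25, and no 2 arrays held identical values. Hybridisation arrays give no counts, so the number of arrays limits the precision. The labels do not say whether replicates came from separate litters, so p-values measure the spread between these samples.

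Probe sets with exactly 1 symbol in GEO's platform annotation were named (1621 had several and 12147 none listed), and 21698 of 21789 matched RefSeq by Entrez number. For the 999 genes with several probe sets, the brightest over all arrays was kept, with their mean as an alternative. A fit of 4 group means over all 12 arrays used limma 3.58.1 in R 4.3.3 (lmFit and eBayes, 8 residual and 4.51 prior degrees of freedom), with Benjamini-Hochberg adjustment over 19938 genes; called means an adjusted p below 0.05. The fit was tested on simulated data. Summaries used Python 3.11.15, pandas 2.3.3, numpy 2.4.6 and scipy 1.17.1.

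Named were both targeted genes, 10 preset cardiac genes, the 15 largest rises and falls among called genes whose arrays did not overlap, up to 6 called members of each of 44 lists with the largest change, and called neighbours of the targeted genes. Any other gene was chosen after its values were seen. The genes, lists and motifs were chosen with earlier results of these data known, so no count over a list is independent support. Alternatives were a further quantile normalisation, median centring, filters on dim genes, an intensity trend, array weights, a fit of only the arrays compared, a replicate block and leaving out each array. Replicate numbers did not pair arrays: deviations from the group means correlated at 0.04, -0.08 and -0.08 between same-numbered WT and double KO arrays.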

Additional observations from a re-analysis of the deposited data

How the results depend on the processing

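The number of genes called against WT stayed within 1.5 times of 4484 under every alternative run, from 3653 with only the arrays compared to 5116 with array weights, and from 3118 to 4436 when 1 array was left out. Against Nkx2-5 KO the count of 1052 became 2367 with array weights and 538 with only the arrays compared, and ran from 494 to 1199 with 1 array left out; against Tbx5 KO the count of 2039 ran from 1232 to 2110. The cause was not tested, beyond the fewer samples of the smaller fits. A further quantile normalisation changed the rises against Nkx2-5 KO from 192 to 397 and the falls from 860 to 554. With the replicate number as a block the 3 counts were 4009, 829 and 1779, though the numbers did not pair the arrays. Of the named genes, 398 kept direction and call after a further quantile normalisation and 80 lost the call. Genes near 0 changed sign: Hcn4 was 0.13 after a further quantile normalisation and ran from -0.19 to 0.02 with 1 array left out, and Tbx20 ran from -0.04 to 0.19. Arrays limit what can be seen of dim genes, whose signal over background is not given here.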
